A study of Mus musculus with 6 samples.

Results

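Gpt2, Ppp1r3c and Nmrk2 are 3 genes of muscle fuel handling, and their transcripts were compared in quadriceps of treated and untreated dystrophic mice. They were taken by symbol from the authors' deposited table of 60 named probe sets, where Nmrk2 stands under its older symbol Itgb1bp3. Each had 1 probe set there, so that the 3 genes were 3 of the 60 listed probe sets and of the 45037 probe sets of the array, controls left out. The authors' probe sets were selected on the difference between these same mice (at least 2-fold, and all with a parametric p under 0.05 in the authors' deposited table), so the treatment differences below describe the selection and are given without a test.

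The mice were utrn+/-;mdx animals on the C57BL/10 strain. They lack dystrophin and have 1 working copy of the gene for utrophin, its relative, and model Duchenne muscular dystrophy. In the treated group, 3 mice received 10 mg/kg per day of lisinopril, an angiotensin-converting enzyme inhibitor, with 37.5 mg/kg per day of spironolactone, a mineralocorticoid receptor antagonist, in the drinking water from 4 to 20 weeks of age. In the untreated group, 3 mice drank plain water. All 6 carried both mutations and were dissected at 20 weeks, each group held 2 males and 1 female (mouse 3), and healthy muscle was not analysed here.

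Working muscle makes alanine from pyruvate and exports it to the liver, stores glucose as glycogen, and needs NAD to oxidise both sugars and fats. Gpt2 encodes the mitochondrial alanine aminotransferase, which interconverts pyruvate and alanine while exchanging an amino group with glutamate. Ppp1r3c encodes a scaffold, also called PTG, that brings protein phosphatase 1 to glycogen particles, where dephosphorylation switches glycogen synthase on. Nmrk2 encodes the nicotinamide riboside kinase found mainly in striated muscle, which turns this vitamin form into a precursor of NAD.

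The 3 genes lie on different chromosomes, and the 250 bases before the start that RefSeq gives for each are shown. The genes were listed for a difference between these groups, and shared control of the 3 was not tested. The windows are on build GRCm38.p6, read 5′ to 3′ on the strand of the gene, at chr8:85492326-85492575 (plus strand) for Gpt2, chr19:36736605-36736854 (minus strand) for Ppp1r3c and chr10:81202038-81202287 (minus strand) for Nmrk2. Capitals mark the motifs found.
Gpt2: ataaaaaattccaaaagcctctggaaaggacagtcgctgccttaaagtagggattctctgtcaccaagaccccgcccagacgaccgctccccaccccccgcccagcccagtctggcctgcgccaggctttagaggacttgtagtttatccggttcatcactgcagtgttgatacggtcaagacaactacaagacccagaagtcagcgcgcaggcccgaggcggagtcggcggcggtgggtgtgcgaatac
Ppp1r3c: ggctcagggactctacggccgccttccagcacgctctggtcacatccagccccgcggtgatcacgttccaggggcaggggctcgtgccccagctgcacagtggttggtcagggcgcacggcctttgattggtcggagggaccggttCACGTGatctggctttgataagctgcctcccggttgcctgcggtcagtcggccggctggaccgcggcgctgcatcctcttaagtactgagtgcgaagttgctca
Nmrk2: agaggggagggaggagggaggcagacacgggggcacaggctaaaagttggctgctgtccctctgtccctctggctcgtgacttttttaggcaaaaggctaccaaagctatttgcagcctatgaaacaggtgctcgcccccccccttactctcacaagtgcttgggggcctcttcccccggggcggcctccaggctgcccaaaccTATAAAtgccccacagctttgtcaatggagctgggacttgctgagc

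Both strands were searched for 7 motifs. The Ppp1r3c window held the E-box CACGTG, 104 to 99 bases before the start, as did 6.02% of 32851 RefSeq windows of this length. The Nmrk2 window held the TATA box letters TATAAA, 46 to 41 bases before the start, as did 12.4% of windows. The start used for Nmrk2 lies 228 bases inside the outermost start annotated for the gene, so most of its window is within a longer transcript model. No window of the 3 held the steroid receptor element TGTTCT (in 16.1% of windows), nor the palindrome of this element and its reverse complement 3 bases apart (0.00913%), nor TCAAGGTCA (0.387%), GTAAACA (3.17%) or TGACGTCA (1.55%). These are letters in a window and were not measured on the array. The GC content was 57.6% for Gpt2, 64.4% for Ppp1r3c and 58.8% for Nmrk2, against a median of 52.4% over all windows.

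The arrays were alike in scale, with median log2 values between 6.07 and 6.13 and pairwise correlations of 0.974 to 0.995. Untreated mouse 3 gave the array least like the rest (mean correlation 0.983). No skeletal muscle marker of a 16-gene list was among the named probe sets, so the tissue label could not be checked against them. No probe set passed limma's adjusted threshold of 0.05 for treatment (0% of 45037, lowest adjusted p = 0.603). Unadjusted p was under 0.05 for 3443, and a per-probe-set analysis of variance without moderation called 1.

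All 3 genes had higher means in treated mice by a little over 2-fold, and for none did a treated mouse fall to the level of an untreated one. On the log2 scale the differences were 1.04 for Gpt2 (moderated SE 0.27), 1.05 for Ppp1r3c (SE 0.26) and 1.08 for Nmrk2 (SE 0.23), so that the 3 genes differed from each other by less than any of these errors. The corresponding folds were 2.06, 2.07 and 2.12. A 2-fold or larger difference upward was found for 0.104% of all probe sets and non-overlapping groups with treated higher for 9.1%, with both for 0.0444%. The selection used this contrast, so the 3 of 3 genes meeting both are not a result. The RNA came from whole muscle, so a larger share of cells of one type and more transcript per cell cannot be told apart.

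**Figure D1:**
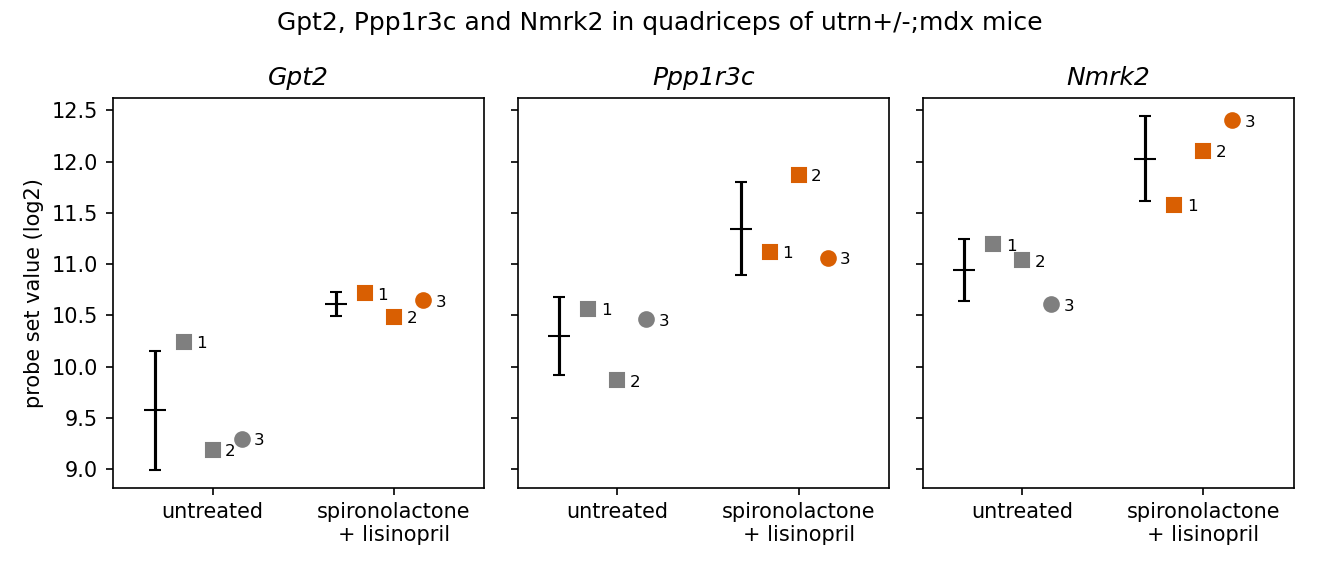
Log2 probe set values of each mouse (numbered as in the labels, squares for males and circles for females) for the 3 genes, grey for untreated and orange for treated mice, with bars for the mean and SD of 3 mice. In every panel the lowest treated mouse lies above the highest untreated mouse, by 0.24 for Gpt2, 0.49 for Ppp1r3c and 0.39 for Nmrk2.

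Gpt2, the alanine aminotransferase gene, had log2 values of 10.24, 9.19 and 9.30 in untreated mice 1, 2 and 3 and of 10.72, 10.49 and 10.65 in treated mice 1, 2 and 3. Untreated mouse 1 stood apart from its group and came close to the treated mice, which were nearly level with each other. The untreated mean was 9.58 ± 0.582 and the treated mean 10.6 ± 0.117 (SD, n = 3 each). On the linear scale untreated mouse 1 was at 1213, against 583 and 628 in the other untreated mice and 1435 to 1681 in treated mice. The smallest contrast between any untreated and any treated mouse was 1.18-fold, the largest 2.88-fold, and 6 of the 9 such pairings reached 2-fold. The group means were therefore drawn together by a single untreated animal, and the group medians were 1.35 apart on the log2 scale.

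Ppp1r3c, the glycogen scaffold gene, had log2 values of 10.57, 9.87 and 10.46 in untreated mice 1, 2 and 3 and of 11.12, 11.87 and 11.06 in treated mice 1, 2 and 3. Treated mouse 2 was the highest and untreated mouse 2 the lowest, while the other 2 mice of each group lay close together. The untreated mean was 10.3 ± 0.378 and the treated mean 11.3 ± 0.451 (SD, n = 3 each). Linear values ran from 933 to 1516 in untreated and from 2133 to 3736 in treated mice. Pairings of 1 untreated with 1 treated mouse gave 1.41-fold to 4.00-fold, with 5 of 9 at 2-fold or more. The group medians were 0.65 apart on the log2 scale, less than the means, because both mice numbered 2 lay outward of their groups.

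Nmrk2, the nicotinamide riboside kinase gene, had log2 values of 11.19, 11.04 and 10.61 in untreated mice 1, 2 and 3 and of 11.58, 12.11 and 12.40 in treated mice 1, 2 and 3. The females were the extremes, the untreated female the lowest and the treated female the highest of the 6. The untreated mean was 10.9 ± 0.303 and the treated mean 12.03 ± 0.417 (SD, n = 3 each). Linear values ran from 1561 to 2341 in untreated and from 3060 to 5415 in treated mice. Pairings of single mice gave 1.31-fold to 3.47-fold, with 5 of 9 at 2-fold or more.

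The mice did not keep the same order across the genes. Untreated mouse 1 was the highest untreated mouse for all 3, but the lowest untreated mouse was mouse 2 for Gpt2 and Ppp1r3c and mouse 3 for Nmrk2. The highest treated mouse was mouse 1 for Gpt2, mouse 2 for Ppp1r3c and mouse 3 for Nmrk2. The largest single departures from a group mean were 0.67 above it for Gpt2 in untreated mouse 1, 0.52 above it for Ppp1r3c in treated mouse 2 and 0.45 below it for Nmrk2 in treated mouse 1.

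Leaving out 1 mouse at a time moved none of the folds by 1.5 times. It could not turn a direction, since the groups did not overlap. Gpt2 ranged from 1.80-fold without untreated mouse 2 to 2.59-fold without untreated mouse 1, a ratio of 1.44. Ppp1r3c ranged from 1.73-fold without treated mouse 2 to 2.29-fold without treated mouse 3, a ratio of 1.32. Nmrk2 ranged from 1.86-fold without treated mouse 3 to 2.48-fold without treated mouse 1, a ratio of 1.33. The mouse with the most leverage thus differed by gene.

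The 2-fold criterion of the series was met in 3 of the 6 sets for Gpt2, 4 of 6 for Ppp1r3c and 4 of 6 for Nmrk2. Without untreated mouse 2 Gpt2 and Ppp1r3c were under it, at 1.80-fold and 1.78-fold. Without untreated mouse 3 Gpt2 and Nmrk2 were under it, at 1.87-fold and 1.89-fold, and Gpt2 was also under it without treated mouse 1, at 1.99-fold. All 3 genes stayed at 1.5-fold or more in each of the 6 sets, as did 0.147% of all probe sets with treated higher and 58 of the 60 listed probe sets in either direction. Of the 60, 14 stayed at 2-fold or more in each set, and none of the 3 genes was among them.

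**Figure D2:**
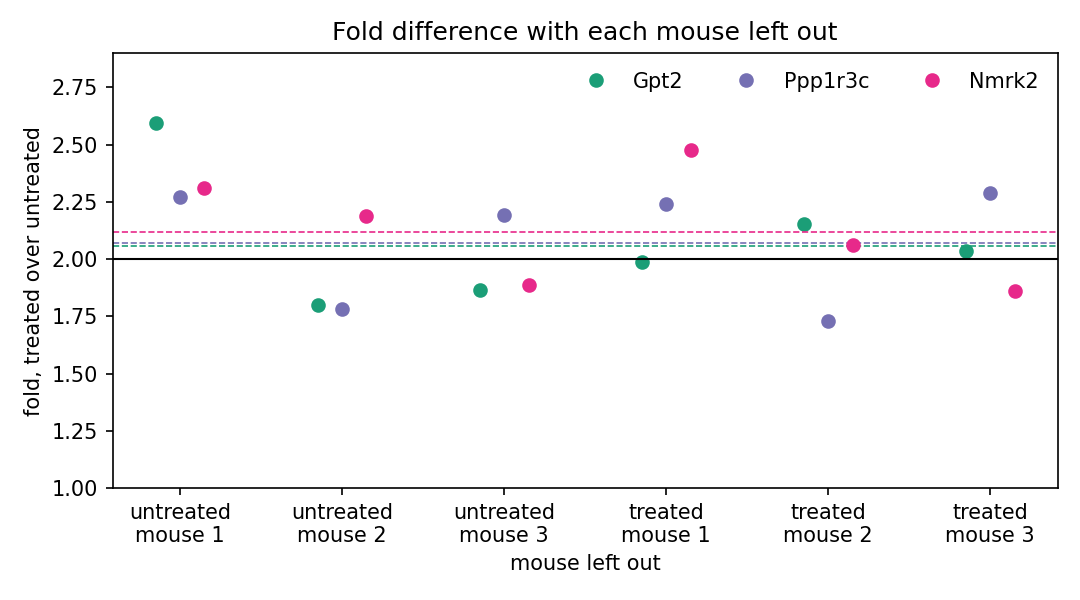
Fold of treated over untreated mice (linear axis) for each gene after leaving out the mouse named on the horizontal axis, with dashed lines at the folds over all 6 mice and a solid line at the 2-fold criterion. All points lie between 1.73 and 2.59, and points of each gene fall on both sides of the solid line.

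The authors' table was filtered on fold and p, so a probe set near its 2-fold edge could be listed only with a small spread, and the ranks that follow describe this filter. The SD between mice of a group, pooled over both groups, was 0.419 for Gpt2, 0.416 for Ppp1r3c and 0.365 for Nmrk2 on the log2 scale. From the smallest up these ranked 7, 6 and 3 among the 60, whose median was 0.671, while the median over all probe sets was 0.147. Of all probe sets, 94.5% had an SD no larger than that of Gpt2, 94.5% than that of Ppp1r3c and 92.5% than that of Nmrk2. The ratio of highest to lowest fold over the 6 sets ranked 10, 3 and 4, against a median of 1.82 and a range of 1.19 to 9.34 among the 60, and it exceeded 1.5 for 47 of them. By size of difference the genes ranked 7, 10 and 15 from the smallest. Near the 2-fold edge, among probe sets at an unadjusted limma p under 0.05, the nearest inside with treated higher were Jph2 (2.01-fold) and B930025B16Rik (2.01-fold). The nearest outside were probe sets at 1.98-fold and 1.92-fold to which no gene name was given.

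In the authors' deposited table the geometric mean intensities were 763 for control and 1570 for treated mice for Gpt2, 1259 and 2606 for Ppp1r3c, and 1973 and 4182 for Nmrk2. For all 3 the authors' deposited table lists a false discovery rate of 0.601 and a permutation p-value of 0.1. The few ways of splitting the mice into groups limit how low a permutation p-value can go.

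Sex was balanced between the groups, so the mean difference between the 2 females and the 4 males was not part of the treatment contrast that chose the genes. The listing also used a p-value, whose within-group spread holds any sex difference, so genes with a large one were less likely to be listed. No sex difference was called for any of the 3 genes (limma, treatment as a term, Benjamini-Hochberg over all probe sets). Gpt2 averaged 9.97 in females and 10.2 in males, a female-minus-male difference of -0.19 (SE 0.28, limma adjusted p = 0.920). Ppp1r3c averaged 10.8 in females and 10.9 in males, a difference of -0.09 (SE 0.29, limma adjusted p = 0.963). Nmrk2 averaged 11.5 in both, with a difference of 0.03 (SE 0.26, limma adjusted p = 0.990). Leaving out 1 mouse turned the sign of each: the difference ran from -0.42 to 0.07 for Gpt2, from -0.43 to 0.25 for Ppp1r3c and from -0.51 (without treated mouse 3) to 0.56 (without untreated mouse 3) for Nmrk2. With these errors and the adjustment over all probe sets, a sex difference of the size of the standard error, or several times it, could go uncalled. The interaction of Nmrk2 given below, 1.07 with an SE of 0.35, was not called either. Over the array 0.00888% of probe sets (4) were called for sex, with 1 left without untreated mouse 1, 1 without untreated mouse 2 and 0 without treated mouse 2.

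The size of the treatment difference was then set side by side in the sexes. Between the single treated and untreated females Nmrk2 differed by 3.47-fold and between males by 1.66-fold. Ppp1r3c ran the other way, with 1.51-fold in females and 2.42-fold in males, and Gpt2 differed by 2.55-fold in females and 1.85-fold in males. The interaction of treatment with sex was 1.07 on the log2 scale for Nmrk2 (SE 0.35, limma unadjusted p = 0.021, adjusted p = 0.925). It was -0.68 for Ppp1r3c (SE 0.55) and 0.46 for Gpt2 (SE 0.57), both with a limma adjusted p of 1.00. None was called, and over the array limma called 0% of probe sets for the interaction. The female values are those of 1 animal a group, for which the fit assumes the males' spread, and the untreated female is also the mouse with the lowest array correlation.

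The genes of the authors' table whose pattern over the 6 mice came nearest to each gene were found by the root mean square gap between log2 values, each probe set centred on its own mean. All 49 other single-symbol genes were compared, and since all were listed for a difference of at least 2-fold, the group difference contributes to every likeness. Gpt2 lay nearest to Jph2, a junctophilin of the muscle triad, at a gap of 0.112, then to Gpd1, the cytosolic glycerol-3-phosphate dehydrogenase, at 0.164 and Lrp2bp at 0.297. Jph2 had log2 values of 9.70, 8.39 and 8.46 in untreated mice 1, 2 and 3 and of 10.05, 9.61 and 9.90 in treated mice 1, 2 and 3. It showed the same high untreated mouse 1 as Gpt2, here within the treated range. Gpd1 had 10.09, 8.86 and 9.002 in untreated mice and 10.46, 10.08 and 10.75 in treated mice, again with untreated mouse 1 inside the treated range.

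Nmrk2 lay nearest to B930025B16Rik at 0.133, then to 4930513N20Rik at 0.214 and to Thrsp, a thyroid hormone responsive lipogenic gene, at 0.257. Ppp1r3c had no such close neighbour: its nearest were B930025B16Rik at 0.336, Lrp2bp at 0.363 and Gpt2 at 0.407. The 3 genes were not each other's nearest. Nmrk2 ranked 8 and Ppp1r3c ranked 10 of 49 by likeness to Gpt2, with gaps of 0.382 and 0.407, and the gap between Ppp1r3c and Nmrk2 was 0.449.

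Few other genes of these pathways can be followed by name. Of a 25-gene glycogen list, a 16-gene list of alanine and glutamate transamination and a 22-gene list of NAD synthesis and use, the only named members were Ppp1r3c, Gpt2 and Nmrk2 themselves. Of a 23-gene list of glucose uptake and oxidation the only named member was Gpd1, at a log2 difference of 1.11 (2.16-fold higher mean in treated mice). None of these 4 passed limma's adjusted threshold in either direction. The median log2 difference was 0.03 over all probe sets, and of the 54 single-symbol probe sets that the authors list, 28 had higher and 26 lower means in treated mice. The unnamed members of the lists may be on the array but could not be told from other probe sets.

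Markers of fat and of slow fibres could be seen only where the authors listed them, for a difference of at least 2-fold between these same groups. That each named marker differed was therefore fixed by the listing. Unnamed members of the lists could not be seen. All 4 named members of a 16-gene adipocyte list (Cfd, Cidec, Pck1 and Retn) had higher means in treated mice, and defining markers such as Adipoq and Plin1 were not among the named genes. The mean log2 value of the 4 was 7.95, 7.54 and 8.20 in untreated mice 1, 2 and 3 and 9.40, 8.05 and 9.82 in treated mice 1, 2 and 3. Treated mouse 2 lay within the untreated range for these markers, and the other treated mice lay above it. In treated mouse 2 the 3 genes stood at 0.91, 1.57 and 1.16 log2 units above the untreated mean for Gpt2, Ppp1r3c and Nmrk2. Among the treated mice, mouse 2 was the lowest for Gpt2, the highest for Ppp1r3c and between the others for Nmrk2. The part of fat content in the values of the 3 genes was not tested.

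All 5 named members of a 12-gene slow-fibre list (Myl2, Myl3, Tnnc1, Tnnt1 and Tpm3) had lower means in treated mice. Each was named only because it differed by at least 2-fold between these same groups. The group difference of their mean is therefore no separate result, and the unnamed members of the list could not be seen. Their mean was 8.28, 10.5 and 11.6 in untreated mice 1, 2 and 3 and 7.34, 7.65 and 8.92 in treated mice 1, 2 and 3. Untreated mouse 1, whose Gpt2 value came closest to those of treated mice, was the untreated mouse with the lowest slow-fibre mean, inside the treated range. Neither Ppp1r3c nor Nmrk2 had an untreated mouse that far from its group, but untreated mouse 1 was the highest untreated mouse for both. For Nmrk2 the untreated values (11.19, 11.04 and 10.61 in mice 1, 2 and 3) ran in the reverse order of the slow-fibre means. Its treated values (11.58, 12.11 and 12.40) ran in the same order as those means. Mbp was the only named member of an 8-gene Schwann cell list (treated-minus-untreated log2 difference -1.10), and a 16-gene macrophage list had none. The part of slow-fibre content in the values of the 3 genes was not tested.

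**Figure D3:**
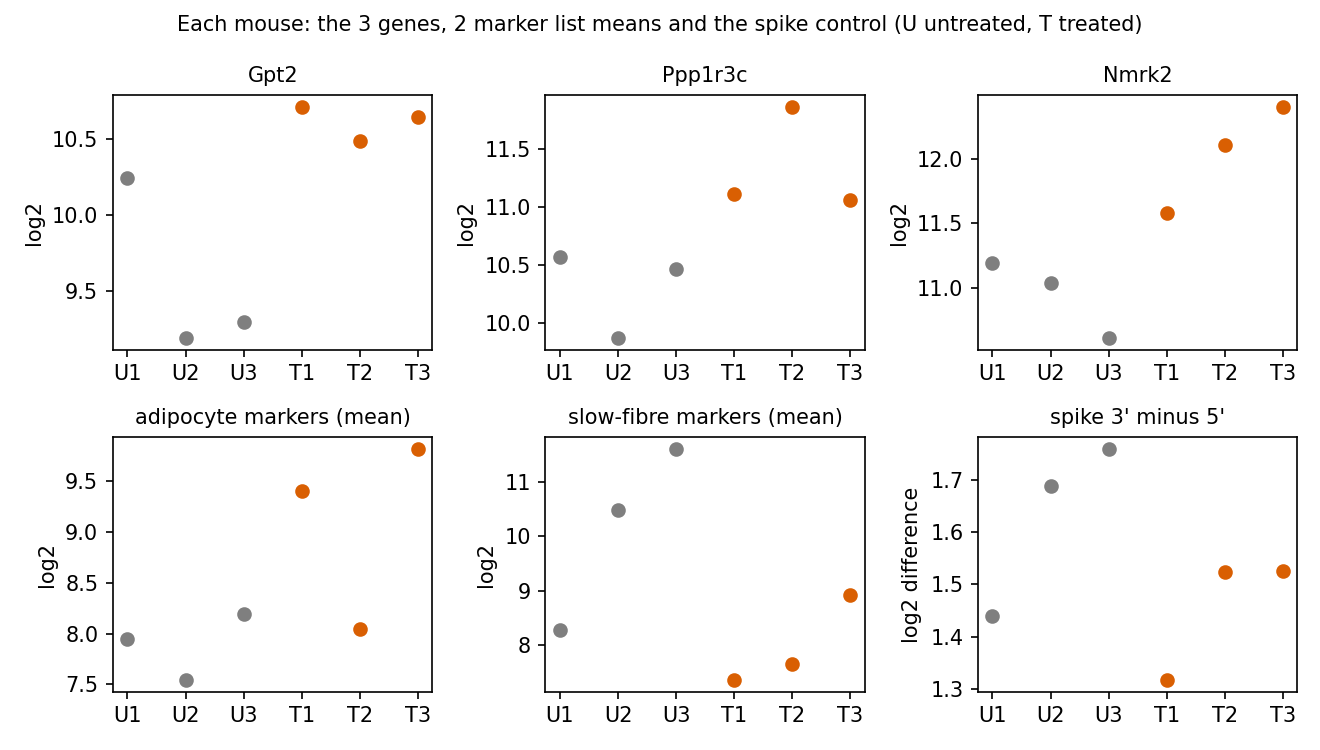
Log2 values of the 3 genes, mean log2 values of the named adipocyte markers (4 genes) and slow-fibre markers (5 genes), and the 3′-minus-5′ log2 signal of the spike controls, for untreated (U, grey) and treated (T, orange) mice 1 to 3. Untreated mouse 1 is high for Gpt2 and low for slow-fibre markers and spikes. Treated mouse 2 is highest for Ppp1r3c, lowest of the treated mice for Gpt2 and low for adipocyte markers. Each panel has its own vertical axis, which does not start at 0.

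The 3′-minus-5′ signal of 4 spike RNAs, which gauges labelling, averaged 1.63 ± 0.168 on untreated and 1.46 ± 0.121 on treated arrays (SD, n = 3 each). It was 1.44, 1.69 and 1.76 for untreated mice 1, 2 and 3 and 1.32, 1.52 and 1.53 for treated mice 1, 2 and 3, so that untreated mouse 1 again lay within the treated range. The same difference for Gapdh, a transcript of the muscle itself and so a sign of RNA quality, was 0.217, 0.523 and 0.591 for untreated mice 1, 2 and 3 and 0.164, 0.241 and 0.187 for treated mice 1, 2 and 3. Here too untreated mouse 1 lay within the treated range and the other untreated mice above it, and the part of RNA quality in the values of the 3 genes was not tested. With the spike signal as a term in the fit the log2 difference of Gpt2 was 0.62 (SE 0.20), against 1.04 without it. That of Ppp1r3c was 1.04 (SE 0.33), against 1.05, and that of Nmrk2 was 1.10 (SE 0.30), against 1.08. The estimate of Gpt2 thus moved with the spike signal, while those of Ppp1r3c and Nmrk2 hardly did.

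**Figure D4:**
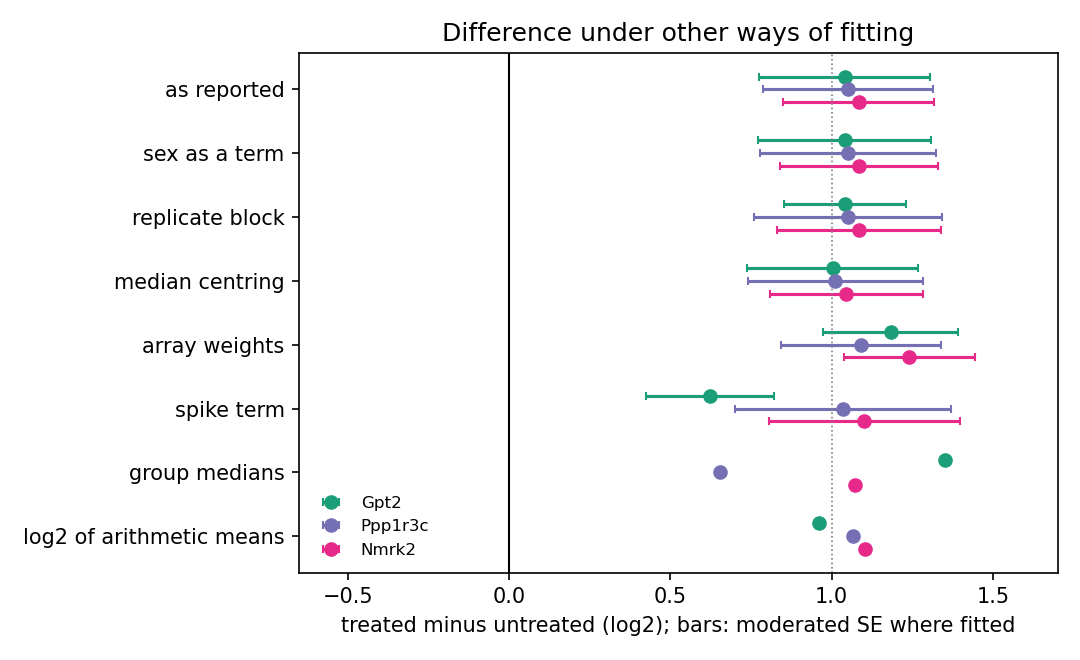
Treated-minus-untreated log2 difference of each gene (dots) under the fit as reported and 7 alternatives, with bars for the moderated SE where a model was fitted, a solid line at 0 and a dotted line at the 2-fold difference. All dots lie above 0, from 0.62 (Gpt2, spike term) to 1.35 (Gpt2, group medians).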

How the data were processed

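Quadriceps RNA of 6 mice was hybridised to 1 array each, labelled with biotin after linear amplification, per the labels' protocols. The authors deposited log2 values for 45101 probe sets, and the submitters' processing notes name RMA, Affymetrix Expression Console and Transcriptome Analysis Console. RMA as usually run quantile-normalizes arrays, so a shift common to most transcripts is hidden. Its settings, the annotation version and any build were not given in the sources used here. A second deposited table lists 60 probe sets with symbols, the same log2 values (within 0.00033), p-values, a false discovery rate, geometric mean intensity per class, the linear ratio of treated over control and, per the file headers, a signed fold change in another column. All gene names come from it, so further probe sets of the 3 genes cannot be told. The symbol Itgb1bp3 was updated to Nmrk2, and promoter windows were read, by gene identifier from RefSeq tables of build GRCm38.p6, where all 3 genes matched.

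After leaving out 64 control probe sets, 45037 entered lmFit and eBayes of limma 3.58.1 (R 4.3.3, two-sided, Benjamini-Hochberg adjustment, threshold 0.05), for treatment without covariates, for sex with treatment as a term, and for their interaction. A fold is taken from the difference between mean log2 values of the groups, and its precision is limited by the number of arrays. The fit was tested on simulated data with independent noise for each probe set and planted differences. That checks only that planted differences are returned on average, not effects shared by an array or the selection on treatment. Named genes are the 3 members, the 3 nearest genes of each by root mean square gap over 6 mice, and named members of pathway lists; Mbp and the marker genes come from cell type lists. The members, lists and rules were chosen with earlier results of these data known. Motif matches cover the 250 bases before each start. Alternatives were leaving out each mouse, a replicate block, sex, median centring, array weights, the spike signal, medians, arithmetic means, a filter at a mean log2 of 6 and an ordinary analysis of variance.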

Additional observations from a re-analysis of the deposited data

How the results depend on the processing

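All 42 treatment differences of the 3 genes under the 14 alternatives run for each were positive, and all moved by less than the pooled SD between mice. Gpt2 with the spike term (0.62) and Ppp1r3c by group medians (0.65) moved by nearly as much. Much of this was fixed in advance. With groups that do not overlap, leaving out 1 mouse, medians and arithmetic means cannot turn the sign. Leaving out 1 of 3 mice also cannot move a difference by the pooled SD. A replicate block or sex term cannot move it in this balanced design, and the authors' listed values are the same values. These counts are therefore no support for the differences. The lowest and highest with 1 mouse left out were 0.85 and 1.38 for Gpt2, 0.79 and 1.19 for Ppp1r3c and 0.90 and 1.31 for Nmrk2 on the log2 scale. Array weights gave 1.18, 1.09 and 1.24, and median centring 1.00, 1.01 and 1.05. The weighted values rest mostly on 1 mouse a group, with weights of 3.54 for treated mouse 3 and 1.65 for untreated mouse 2. The other mice had weights of 0.44 to 0.94. Counts over the array moved more. The 132 probe sets at 2-fold or more (47 with treated higher) became 94 to 522 with 1 mouse left out (522 without untreated mouse 1, of which 124 higher, and 278 without treated mouse 2), 200 with array weights and 64 with the spike term. Limma called 0 for treatment under each alternative run with it, and an ordinary analysis of variance called 1. For sex the 4 calls became 0 to 5 with 1 mouse left out, 2 with median centring and 1 with dim probe sets left out; the interaction stayed at 0 under both alternatives run. With the replicate number as a block limma called 0 probe sets, and the log2 differences (1.04, 1.05 and 1.08) cannot move in this balanced design. Their SE went from 0.27 to 0.19 for Gpt2, from 0.26 to 0.29 for Ppp1r3c and from 0.23 to 0.25 for Nmrk2. With the block 5124 of the 45037 probe sets had an unadjusted limma p under 0.05, against 3443 without it. The deviations of same-numbered mice correlated across probe sets at 0.517, -0.0824 and 0.183 for numbers 1, 2 and 3. Those of differently numbered mice ran from -0.457 to 0.357. These values cannot show whether the numbers pair the mice, because the deviations within a group of 3 are tied to each other. No sex difference or interaction of the 3 genes was called under any alternative run, but the sign of each sex difference turned with 1 mouse left out. The cause of these moves was not tested. Without scanner intensities or detection calls, the effect of background correction was not examined.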
